A study of Mus musculus with 14 samples.

Results

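The genes described here are 9 transporters and channels that carry chloride, sodium and potassium across the intestinal epithelium, out of 18781 genes in an expression table of mouse small intestinal organoids. They are Cftr, Slc12a2, Kcnq1 and Kcne3 of the fluid secretion machinery, the sodium/proton exchangers Slc9a2 and Slc9a3, the anion exchangers Slc26a3 and Slc26a6, and the potassium channel subunit Kcns3. They were named as a list, and all 9 were found by symbol and passed the filter on low values. Kcns3 was chosen by its own values, because it falls most in organoids lacking both Atg16l1 and Rnaseh2b, so its values are given as a description with no test, and every count of members below is over the other 8.

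Fluid secretion in the crypt starts with chloride entry at the basolateral membrane through the sodium-potassium-chloride cotransporter NKCC1, encoded by Slc12a2, and ends with chloride exit at the apical membrane through CFTR, the channel mutated in cystic fibrosis. A basolateral potassium channel made of the pore subunit KCNQ1 and the accessory subunit KCNE3 recycles potassium and keeps the cell electrically able to secrete. Absorption of salt on the villus and in the colon pairs an apical sodium/proton exchanger, NHE3 (Slc9a3) or NHE2 (Slc9a2), with an apical chloride/bicarbonate exchanger, DRA (Slc26a3) or PAT1 (Slc26a6), and water follows. Kcns3 encodes Kv9.3, a potassium channel subunit that forms no channel of its own and modifies the pores made by Kv2 subunits.

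The study asked how the autophagy gene Atg16l1 acts in epithelium damaged by loss of Rnaseh2b, a subunit of the enzyme that removes ribonucleotides from DNA. Organoids were grown untreated in Intesticult medium and fall into 4 genotypes. WT organoids carried floxed alleles of both genes and no Cre (n = 4), Atg16l1ΔIEC organoids floxed Atg16l1 with Villin-Cre (n = 4), Rnaseh2bΔIEC organoids floxed Rnaseh2b with Villin-Cre (n = 2), and Atg16l1/Rnaseh2bΔIEC organoids, called double-knockout organoids here, both floxed genes with Villin-Cre (n = 4). Villin-Cre deletes throughout the intestinal epithelium, so the model holds no cell type-specific loss. No control carried Cre alone, and the paper's account of the sequencing names the control organoids by floxed Rnaseh2b only. The age of the donor animals was not given for these organoids, and no label says whether libraries of a genotype came from separate animals or cultures, so p-values measure only the spread between these libraries, which may be technical. Further Rnaseh2bΔIEC samples had been left out of the study for their read counts and were not analysed here.

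Values are log2 values as the authors deposited them, and depth is unknown because the table holds no counts. Epithelial markers were high in every library (Epcam from 14.64 to 14.76, Vil1 from 14.10 to 14.47), and the 7 stromal, endothelial and immune markers in the table had summed linear levels of only 29.29 to 34.09, with Cd3e and Adgre1 at means of -1.33 and -1.97 near the table's lowest value of -2.13. The labels matched the deleted genes in direction. Atg16l1 had values from 9.43 to 9.54 in WT, from 6.74 to 7.35 in Atg16l1ΔIEC and from 8.14 to 8.58 in double-knockout libraries. Rnaseh2b had values from 8.41 to 8.70 in WT, from 7.15 to 7.21 in Rnaseh2bΔIEC and from 7.68 to 7.92 in double-knockout libraries. Both transcripts thus remained higher in the double-knockout libraries than in the matching single knockout, by 1.46 for Atg16l1 (limma adjusted p = 1.96e-05) and by 0.63 for Rnaseh2b (limma adjusted p = 0.00074).

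Libraries 1 and 2 of a genotype, and libraries 3 and 4, stood apart from each other within the genotype. Deviations from the genotype mean correlated by 0.31 to 0.85 within such a pair and by -0.89 to -0.63 between the pairs of a genotype. Part of the negative values is built in, because the deviations are taken from the mean of the same libraries. Rnaseh2bΔIEC, with 2 libraries, was left out of these correlations. The pairs also differed in sex by Xist and Ddx3y. Libraries 1 and 2 were male in WT, Rnaseh2bΔIEC and double-knockout organoids and female in Atg16l1ΔIEC organoids, and libraries 3 and 4 had the other sex. There was thus no female Rnaseh2bΔIEC library. By the library names, all WT libraries ran in lane 1, all Atg16l1ΔIEC and Rnaseh2bΔIEC libraries in lane 2, and the double-knockout male pair in lane 2 and female pair in lane 1. Within a genotype, sex and pair cannot be told apart, and lane is confounded with genotype wherever WT is set against a single knockout. Values within male or female pairs are therefore given beside a number of the results below, and those for Rnaseh2bΔIEC are within males.

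The sequences before the transcription start are shown for Slc9a3, Slc26a3 and Slc26a6, the 3 transporters of absorption called higher in Rnaseh2bΔIEC than in WT organoids. Kcns3, whose values spread most, is shown beside them. RefSeq starts on GRCm38.p6 were used for 6 of the members. No start was found for Slc9a2 and Kcnq1, and Slc12a2 was left out of the search. The 250 bases before the first listed start are printed 5′ to 3′ on the gene's strand. The windows of Slc26a3 and Slc26a6 and most of that of Kcns3 lie within the gene bounds given below, which come from another annotation. Capitals mark matches to GGGCGG (the GC box) or TATAAA (the TATA box) on either strand.
Slc9a3, chr13:74121163-74121412, plus strand: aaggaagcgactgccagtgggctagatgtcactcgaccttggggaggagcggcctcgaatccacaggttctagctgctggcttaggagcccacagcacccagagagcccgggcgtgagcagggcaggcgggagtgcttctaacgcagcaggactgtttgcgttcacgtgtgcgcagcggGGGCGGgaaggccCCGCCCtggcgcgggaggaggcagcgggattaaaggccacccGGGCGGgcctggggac
Slc26a3, chr12:31437969-31438218, plus strand: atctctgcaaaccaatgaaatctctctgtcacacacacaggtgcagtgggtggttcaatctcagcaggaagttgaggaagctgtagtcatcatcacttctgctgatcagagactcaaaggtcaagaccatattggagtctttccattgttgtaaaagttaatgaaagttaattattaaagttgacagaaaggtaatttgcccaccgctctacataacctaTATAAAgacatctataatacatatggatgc
Slc26a6, chr9:108853793-108854042, plus strand: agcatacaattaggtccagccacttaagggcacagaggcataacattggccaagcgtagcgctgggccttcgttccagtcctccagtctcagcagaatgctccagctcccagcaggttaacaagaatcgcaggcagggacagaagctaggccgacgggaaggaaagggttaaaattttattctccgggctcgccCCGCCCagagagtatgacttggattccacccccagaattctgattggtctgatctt
Kcns3, chr12:11150843-11151092, minus strand: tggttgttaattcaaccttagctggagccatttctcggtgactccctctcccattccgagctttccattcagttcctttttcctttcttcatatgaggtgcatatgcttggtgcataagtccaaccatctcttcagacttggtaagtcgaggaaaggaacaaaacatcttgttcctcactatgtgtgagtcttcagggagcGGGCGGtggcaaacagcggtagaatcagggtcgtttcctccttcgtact
Slc9a3 held 3 GC boxes, Slc26a6 and Kcns3 1 each and Slc26a3 none, and only Slc26a3 among these windows held a TATA box. Kcns3 has a second listed start, whose window is not printed and held 2 GC boxes. Of 32851 windows of the same length before mouse starts, 32.7% held a GC box and 12.4% a TATA box. The letters AGATAA, which GATA factors bind, were found in none of the 4 windows and in 9.99% of all. Letters bound by CDX factors (TTTATG) were also in none, and in 10.8% of all. The same held for part of the HNF4 site, CAAAGT, found in 12.6% of all. No searched motif was present in the windows of all 3 absorption genes.

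Adjusted for exon length, Slc12a2, Kcnq1 and Cftr, 3 of the 4 secretion genes, were the most abundant of the list. In WT organoids Slc12a2 led with a level of 10.71 ± 0.04 (SD, n = 4) on the scale of log2 value per kilobase of exon, followed by Kcnq1 at 10.41 ± 0.04 and Cftr at 9.71 ± 0.11. The anion exchangers came next, Slc26a3 at 8.59 ± 0.09 and Slc26a6 at 8.06 ± 0.37, and then Slc9a2 at 7.70 ± 0.16. Kcne3 (6.90 ± 0.42), Kcns3 (6.43 ± 0.78) and Slc9a3 (6.21 ± 0.46) were lowest. The pore subunit KCNQ1 was thus far above its partner KCNE3 at the level of RNA per length. Libraries of Slc26a6 and Slc9a2 overlapped in this order, as did Kcne3 with Kcns3 and Kcns3 with Slc9a3, and the other neighbours did not. Slc12a2, Kcnq1, Cftr, Slc26a3, Slc26a6 and Slc9a2 held the first 6 places in that order in all 4 genotypes by the genotype mean. In double-knockout organoids libraries of Slc9a2 overlapped those of Slc26a6 above it and of Kcne3 below it. In Atg16l1ΔIEC organoids Slc12a2 overlapped Kcnq1, and Kcne3 overlapped Slc9a3 and Kcns3. In Rnaseh2bΔIEC organoids Slc9a3 overlapped Kcne3, and the other neighbours in these 3 genotypes did not overlap. The means changed order in the last 3 places, and Kcns3 was ninth in Rnaseh2bΔIEC (6.73 ± 0.12, n = 2), Atg16l1ΔIEC (5.61 ± 0.75, n = 4) and double-knockout organoids (4.62 ± 0.24, n = 4).

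**Figure D1:**
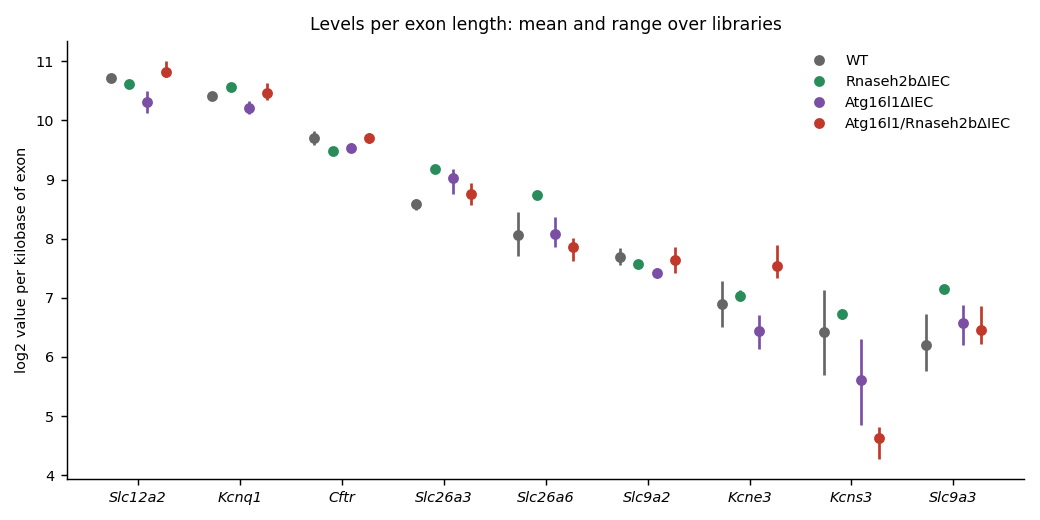
Level of each gene on the scale of log2 value per kilobase of exon, by genotype. Points are means and lines the range over libraries (2 for Rnaseh2bΔIEC, 4 for the others). Slc12a2 and Kcnq1 lie above 10 in every genotype, while Kcns3 runs from 6.43 in WT to 4.62 in double-knockout organoids.

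Rnaseh2bΔIEC organoids had higher Slc9a3, Slc26a3 and Slc26a6 and lower Cftr than WT. Atg16l1ΔIEC organoids had lower Slc12a2, Kcnq1 and Cftr and higher Slc26a3. Double-knockout organoids had higher Kcne3 than WT, and the other tested members did not pass. In bulk RNA, a different number of cells of a type and a different amount of RNA per cell cannot be told apart.

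With Rnaseh2b deleted, 3 of 8 members were called higher and 1 lower than WT (limma, Benjamini-Hochberg adjusted p under 0.05), where 14.4% of 12802 genes were called higher and 12.3% lower. With Atg16l1 deleted, 1 was called higher and 3 lower than WT, against 8.73% and 10.4% of all genes. With both deleted, 1 was called higher and none lower, against 8.10% and 8.01%, and 1 of the 8 had an unadjusted p under 0.05. Against Rnaseh2bΔIEC, 1 was called higher and 2 lower in double-knockout organoids, against 11.1% and 14.4%. Against Atg16l1ΔIEC, 4 were called higher and none lower, against 12.6% and 12.5%, with 5 at an unadjusted p under 0.05. Comparisons with a shared group are not independent of each other. The effect of Rnaseh2b deletion differed with the Atg16l1 genotype for 6 of 8 members, against 35.1% of all genes.

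**Figure D2:**
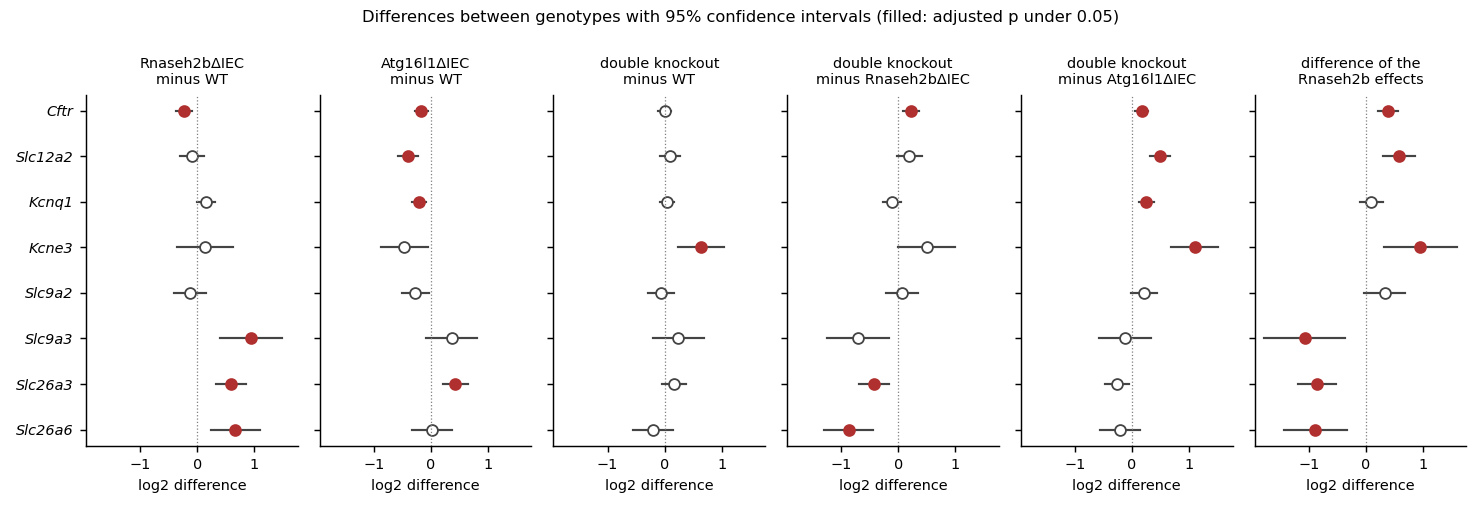
Log2 differences of the 8 tested members in the 5 pairwise comparisons and, at the right, the Rnaseh2b effect with Atg16l1 deleted minus that with Atg16l1 present. Points are limma estimates, bars 95% confidence intervals, and filled points passed an adjusted p of 0.05. In the right panel Cftr, Slc12a2 and Kcne3 lie above 0 and Slc9a3, Slc26a3 and Slc26a6 below it.

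These calls treat the libraries of a pair as independent. With the library pair as a random block (consensus correlation 0.65, an alternative chosen after seeing the data), the calls that held were Slc26a3 in Rnaseh2bΔIEC against WT, Slc26a6 in double-knockout against Rnaseh2bΔIEC, Slc12a2 and Kcne3 in double-knockout against Atg16l1ΔIEC, and Cftr, Slc12a2 and Slc26a3 for the difference of effects. Averaging each pair to a single value left none of the 8 called by limma in any of the 6 comparisons, with 1 to 5 of them at an unadjusted p under 0.05. With lane as a covariate, the calls that held were Slc12a2 and Kcnq1 in Atg16l1ΔIEC against WT, Slc26a6 in double-knockout against Rnaseh2bΔIEC, Slc12a2, Kcnq1 and Kcne3 in double-knockout against Atg16l1ΔIEC, and Slc12a2 for the difference of effects. Only double-knockout organoids had libraries in both lanes, so the lane term equals the gap between their male and female pairs. Fits with this term cannot separate lane from sex or pair.

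**Figure D3:**
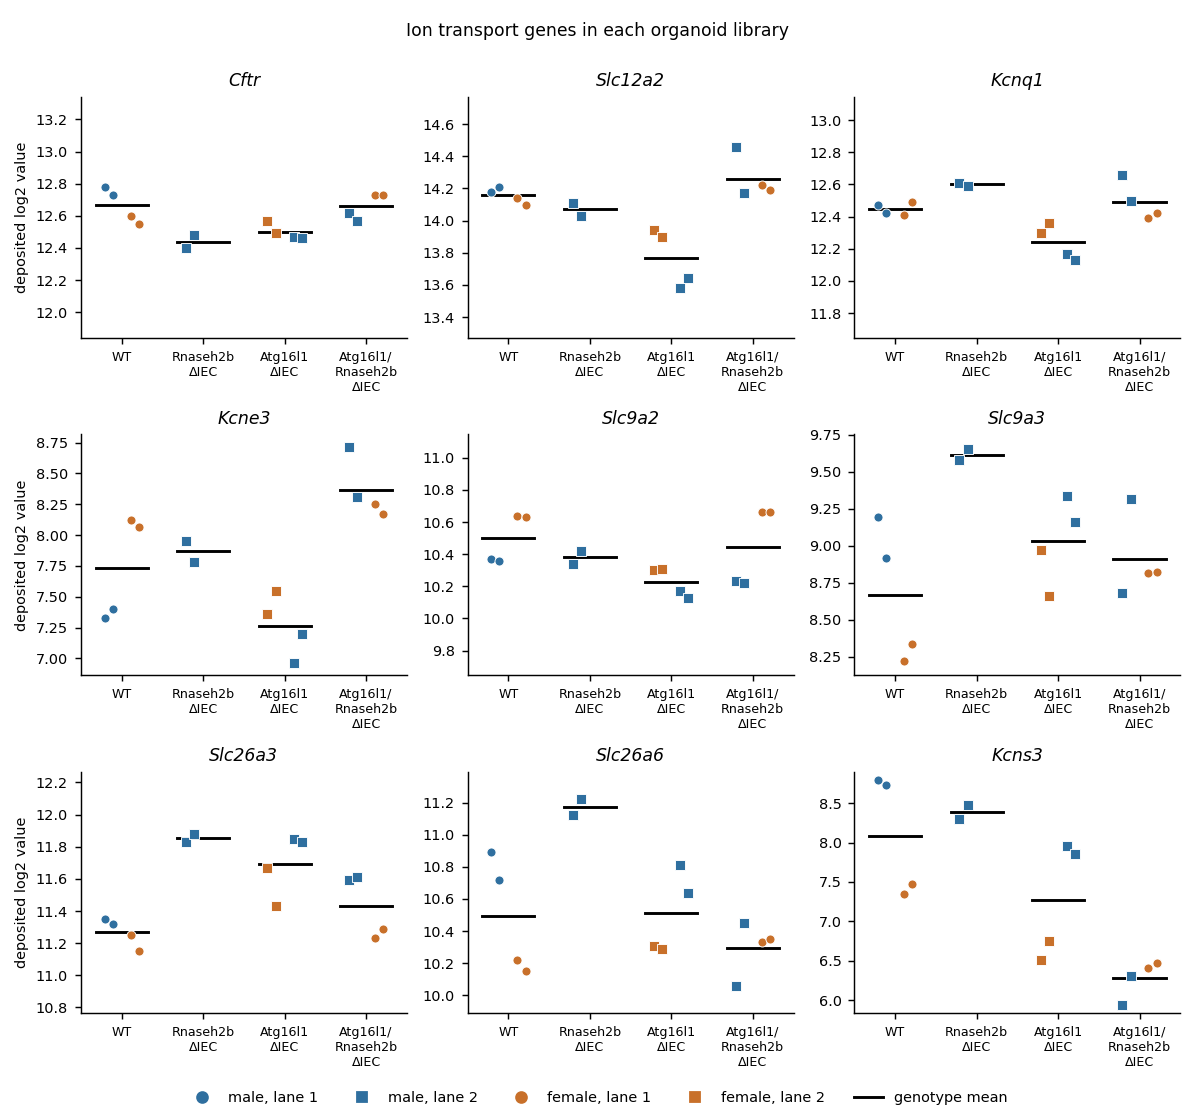
Deposited log2 value of each gene in each of the 14 libraries, by genotype, with colour for sex, symbol shape for lane and a line for the genotype mean. Each panel has its own axis range. The libraries of the double-knockout male pair lie 0.64 apart for Slc9a3, 0.40 for Kcne3, 0.39 for Slc26a6 and 0.38 for Kcns3. The male and female pairs of WT are far apart for Kcns3 (8.76 against 7.41) and close for Kcnq1 (12.44 against 12.45).

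Slc12a2, the chloride entry step, was lowest in Atg16l1ΔIEC organoids. The gene (ENSMUSG00000024597, chromosome 18 of GRCm38, 57878678 to 57946821, plus strand) had values of 14.18, 14.21, 14.14 and 14.10 in WT and 13.94, 13.90, 13.58 and 13.64 in Atg16l1ΔIEC libraries. In Rnaseh2bΔIEC libraries it had 14.11 and 14.03, and in double-knockout libraries 14.46, 14.17, 14.22 and 14.19. All 4 Atg16l1ΔIEC libraries lay below every other library, and the male pair lay lowest. The difference from WT was -0.39 (SE 0.08, 95% CI -0.57 to -0.22, limma adjusted p = 0.00549), about 0.76 of the WT level on the linear scale. Double-knockout organoids were higher than Atg16l1ΔIEC by 0.50 (SE 0.08, limma adjusted p = 0.00143) and did not pass against WT (0.10, 95% CI -0.07 to 0.28, limma adjusted p = 0.407). None of these calls was lost on leaving out any library. Within males Slc12a2 was 0.58 lower in Atg16l1ΔIEC than in WT and within females 0.21 lower, and double knockout minus Atg16l1ΔIEC was 0.71 in males and 0.28 in females.

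Cftr, the chloride exit step, moved little. It lies on chromosome 6 (ENSMUSG00000041301, GRCm38 18170687 to 18322768, plus strand) and shares 129 exonic bases with Gm15592 on the other strand. Its values were 12.78, 12.73, 12.60 and 12.55 in WT, 12.40 and 12.48 in Rnaseh2bΔIEC, 12.57, 12.49, 12.47 and 12.46 in Atg16l1ΔIEC, and 12.62, 12.57, 12.73 and 12.73 in double-knockout libraries. Rnaseh2bΔIEC libraries lay below all WT libraries, while Atg16l1ΔIEC libraries overlapped them. The difference from WT was -0.22 in Rnaseh2bΔIEC (SE 0.07, limma adjusted p = 0.0232) and -0.16 in Atg16l1ΔIEC organoids (SE 0.05, limma adjusted p = 0.0462). The first call was lost without WT library 2 or either Rnaseh2bΔIEC library, and the second without WT library 1 or 2, Atg16l1ΔIEC library 2, 3 or 4, or either Rnaseh2bΔIEC library. Double-knockout organoids did not pass against WT (difference 0.00, 95% CI -0.11 to 0.12, limma adjusted p = 0.971). The Atg16l1ΔIEC call was also lost without the filter on low values, with upper quartile scaling and with only both groups in the fit. Within males the differences from WT were -0.31 in Rnaseh2bΔIEC and -0.29 in Atg16l1ΔIEC, and within females -0.04 in Atg16l1ΔIEC. The double-knockout mean joins a male pair 0.15 below and a female pair 0.16 above the WT pair of its sex. Against Rnaseh2bΔIEC and Atg16l1ΔIEC the double knockout was higher by 0.23 (limma adjusted p = 0.0226) and 0.17 (limma adjusted p = 0.0354). The call against Rnaseh2bΔIEC was lost without Rnaseh2bΔIEC library 1 or 2 or double-knockout library 3 or 4, and the call against Atg16l1ΔIEC without Atg16l1ΔIEC library 2, 3 or 4 or double-knockout library 3 or 4 or without the filter on low values.

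Kcnq1, the potassium pore, was also lowest in Atg16l1ΔIEC organoids. It lies on chromosome 7 (ENSMUSG00000009545, 143106362 to 143427042, plus strand), where 121 exonic bases overlap the antisense RNA Kcnq1ot1. WT libraries had 12.47, 12.42, 12.41 and 12.49, Rnaseh2bΔIEC libraries 12.61 and 12.59, Atg16l1ΔIEC libraries 12.30, 12.36, 12.17 and 12.13, and double-knockout libraries 12.66, 12.50, 12.39 and 12.42. Again every Atg16l1ΔIEC library lay below every other library. Kcnq1 was 0.21 lower than WT there (SE 0.06, limma adjusted p = 0.0294), and the call was lost without WT library 1, 2 or 4 or Atg16l1ΔIEC library 3 or 4. That difference was -0.29 in males and -0.12 in females. Double-knockout organoids were 0.25 above Atg16l1ΔIEC (SE 0.06, limma adjusted p = 0.0102), with 0.43 in males and 0.07 in females. Rnaseh2bΔIEC against WT gave 0.15 (95% CI -0.01 to 0.31, limma adjusted p = 0.142).

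Kcne3, the accessory subunit of the same channel, had the widest range of the secretion genes. It lies on chromosome 7 (ENSMUSG00000035165, 100176502 to 100184869, plus strand) and shares 9 exonic bases with Gm34821 on the other strand. Values were 7.33, 7.40, 8.12 and 8.06 in WT, 7.95 and 7.78 in Rnaseh2bΔIEC, 7.36, 7.55, 6.96 and 7.20 in Atg16l1ΔIEC, and 8.72, 8.31, 8.25 and 8.17 in double-knockout libraries. All 4 double-knockout libraries lay above all others, though the WT female pair came within 0.12 of the double-knockout female pair. Kcne3 rose by 1.10 in double-knockout over Atg16l1ΔIEC organoids (SE 0.19, limma adjusted p = 0.00174), which is 2.14-fold on the linear scale, and no left-out library ended that call. It was 1.43 in males and 0.76 in females. Over WT it rose by 0.63 (SE 0.19, limma adjusted p = 0.0377), a mean of 1.15 in males and 0.12 in females. This call was lost without WT library 1 or 2, either Rnaseh2bΔIEC library, or double-knockout library 1 or 2, and also without the filter on low values or with only both groups in the fit. Against Rnaseh2bΔIEC the difference was 0.49 (95% CI -0.000623 to 0.99, limma adjusted p = 0.130), and 0.65 within males.

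Slc9a2, which encodes NHE2, passed the test in no comparison. It lies on chromosome 1 (ENSMUSG00000026062, 40680574 to 40769273, plus strand). Values were 10.37, 10.36, 10.64 and 10.63 in WT, 10.34 and 10.42 in Rnaseh2bΔIEC, 10.30, 10.31, 10.17 and 10.13 in Atg16l1ΔIEC, and 10.23, 10.22, 10.66 and 10.66 in double-knockout libraries. The female pair was above the male pair in all 3 genotypes that had both, by 0.27 in WT, 0.16 in Atg16l1ΔIEC and 0.44 in double-knockout organoids. Atg16l1ΔIEC libraries lay below all WT libraries, with a difference of -0.27 (95% CI -0.50 to -0.04, limma adjusted p = 0.0916) and of -0.21 in males and -0.33 in females. With sex as a covariate, chosen after seeing the data, the difference of -0.27 passed (limma adjusted p = 0.00141). A lane covariate turned the difference to 0.17 (limma adjusted p = 0.359).

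Slc9a3, which encodes NHE3, was highest in Rnaseh2bΔIEC organoids. The gene (ENSMUSG00000036123, chromosome 13, 74121457 to 74169442, plus strand) had values of 9.19, 8.92, 8.22 and 8.33 in WT and 9.58 and 9.65 in Rnaseh2bΔIEC libraries. Atg16l1ΔIEC libraries had 8.97, 8.66, 9.34 and 9.16, and double-knockout libraries 8.68, 9.32, 8.81 and 8.82. Both Rnaseh2bΔIEC libraries lay above all 12 other libraries. Slc9a3 rose by 0.95 over WT (SE 0.26, limma adjusted p = 0.0158), equal to 1.93-fold. The WT male pair was 0.78 above the WT female pair, and within males the rise was 0.56. The call was lost without either Rnaseh2bΔIEC library. Double-knockout against Rnaseh2bΔIEC gave -0.71 (95% CI -1.26 to -0.16, limma adjusted p = 0.0577), which passed without WT library 1 or 3 or double-knockout library 2. The double-knockout libraries did not pass against WT (0.24, 95% CI -0.21 to 0.69, limma adjusted p = 0.451), with -0.06 in males and 0.54 in females.

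Slc26a3, the chloride/bicarbonate exchanger lost in congenital chloride diarrhoea, was higher than WT in both single knockouts. It lies on chromosome 12 (ENSMUSG00000001225, 31390871 to 31473917, plus strand). Values were 11.35, 11.32, 11.25 and 11.15 in WT, 11.83 and 11.88 in Rnaseh2bΔIEC, 11.67, 11.43, 11.85 and 11.83 in Atg16l1ΔIEC, and 11.59, 11.61, 11.23 and 11.29 in double-knockout libraries. No single-knockout library overlapped WT, whereas the double-knockout female pair did. The rise over WT was 0.59 in Rnaseh2bΔIEC (SE 0.12, limma adjusted p = 0.00404) and 0.43 in Atg16l1ΔIEC (SE 0.10, limma adjusted p = 0.00989), and leaving out any library ended neither call. With lane as a covariate neither passed, at 0.25 (limma adjusted p = 0.262) and 0.09 (limma adjusted p = 0.691). Males alone gave 0.52 and 0.51, and females 0.35 for Atg16l1ΔIEC. Double-knockout organoids were 0.43 below Rnaseh2bΔIEC (SE 0.12, limma adjusted p = 0.0219), a call lost without either Rnaseh2bΔIEC library. Within males, the only pairs of that comparison in 1 lane, the difference was -0.26. Double-knockout organoids were 0.17 above WT (95% CI -0.05 to 0.38, limma adjusted p = 0.268).

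Slc26a6, the other anion exchanger, passed against WT in Rnaseh2bΔIEC organoids and not in Atg16l1ΔIEC (0.01, 95% CI -0.34 to 0.36, limma adjusted p = 0.967). It lies on chromosome 9 (ENSMUSG00000023259, 108853283 to 108913049, plus strand). Values were 10.89, 10.72, 10.22 and 10.15 in WT, 11.12 and 11.22 in Rnaseh2bΔIEC, 10.31, 10.29, 10.81 and 10.64 in Atg16l1ΔIEC, and 10.06, 10.45, 10.33 and 10.35 in double-knockout libraries. Rnaseh2bΔIEC libraries lay above all others. The rise over WT was 0.67 (SE 0.20, limma adjusted p = 0.0244) and 0.36 within males, and it was lost without WT library 3 or 4 or either Rnaseh2bΔIEC library. Double-knockout minus Rnaseh2bΔIEC organoids gave -0.87 (SE 0.20, limma adjusted p = 0.00728), with -0.91 within males, a call lost without Rnaseh2bΔIEC library 2. The male pairs of WT and Atg16l1ΔIEC were above the female pairs by 0.62 and 0.43, while in double-knockout organoids the male pair was 0.08 below the female pair. Against WT the double-knockout difference was therefore -0.55 in males and 0.15 in females, with a mean of -0.20 (95% CI -0.55 to 0.15, limma adjusted p = 0.418).

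Kcns3 was described without a test because it was selected on these values. The gene (ENSMUSG00000043673, chromosome 12, 11090202 to 11151056, minus strand) had values of 8.79, 8.72, 7.35 and 7.48 in WT, 8.30 and 8.48 in Rnaseh2bΔIEC, 6.51, 6.75, 7.96 and 7.85 in Atg16l1ΔIEC, and 5.94, 6.31, 6.41 and 6.47 in double-knockout libraries. Every double-knockout library lay below every other library, and the closest was the Atg16l1ΔIEC female pair. The double-knockout mean of 6.28 ± 0.24 (SD, n = 4) differed by -1.80 from the WT mean of 8.09 ± 0.78 (SD, n = 4), which is 0.29 of the WT level on the linear scale. The difference was -0.99 against Atg16l1ΔIEC (7.27 ± 0.75, n = 4) and -2.11 against Rnaseh2bΔIEC organoids (8.39 ± 0.12, n = 2).

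The size of these Kcns3 differences depended on the pair. Male pairs were above female pairs by 1.35 in WT and 1.28 in Atg16l1ΔIEC organoids, but in double-knockout organoids the male pair was 0.31 below (male minus female -0.31). Double knockout minus WT was therefore -2.63 in males and -0.98 in females. Double knockout minus Atg16l1ΔIEC was -1.78 in males and -0.19 in females. Atg16l1ΔIEC minus WT hardly depended on sex, with -0.85 in males and -0.78 in females. The Rnaseh2bΔIEC mean lay 0.30 above the WT mean, yet its male libraries lay below the male WT pair, with a difference of -0.37. Lane cannot be separated from the pair in double-knockout organoids, where the male pair ran in lane 2.

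**Figure D4:**
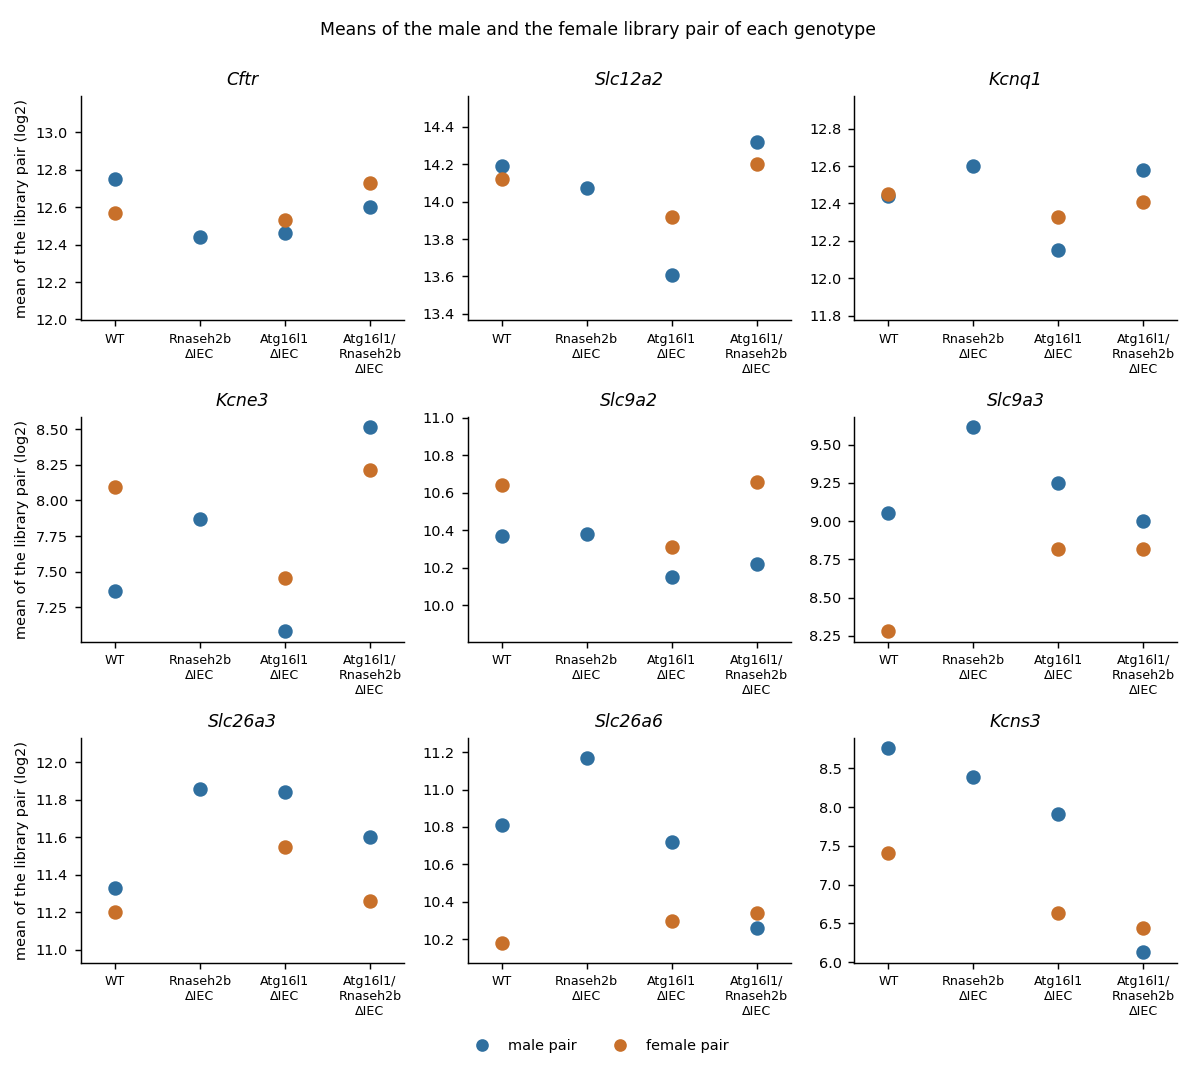
Mean log2 value of the male and of the female library pair in each genotype, with an axis range of its own in each panel. Rnaseh2bΔIEC has no female pair. For Kcns3 the male pair has 8.76 in WT and 6.13 in double-knockout organoids and the female pair 7.41 and 6.44.

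Kcnb2, a Kv2 pore subunit of the kind that Kv9.3 modifies, had a low level. It had 5.22 ± 0.17 (SD, n = 4) in WT, 4.96 ± 0.06 (n = 2) in Rnaseh2bΔIEC and 5.20 ± 0.05 (n = 4) in double-knockout organoids. It passed in Rnaseh2bΔIEC against WT (-0.26, limma adjusted p = 0.0456) and for the difference of effects (0.35, limma adjusted p = 0.0293), and gave -0.02 in double knockout against WT (limma adjusted p = 0.872). It was named for this role after its values had been seen.

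The effect of Rnaseh2b deletion was set against itself with and without Atg16l1. The difference, double knockout minus Atg16l1ΔIEC less Rnaseh2bΔIEC minus WT, was positive for the 3 secretion genes that passed and negative for the 3 absorption genes that passed. It was 0.39 for Cftr (SE 0.08, limma adjusted p = 0.0035), 0.59 for Slc12a2 (SE 0.13, limma adjusted p = 0.00399) and 0.96 for Kcne3 (SE 0.30, limma adjusted p = 0.0237). For Slc9a3 it was -1.07 (SE 0.33, limma adjusted p = 0.0228), for Slc26a3 -0.86 (SE 0.16, limma adjusted p = 0.00136) and for Slc26a6 -0.89 (SE 0.26, limma adjusted p = 0.0173). Kcnq1 (0.10, 95% CI -0.11 to 0.30) and Slc9a2 (0.33, 95% CI -0.03 to 0.70) did not pass. Restricted to male libraries, the estimates for the 6 called members kept their signs, from 0.45 for Cftr to 0.93 for Kcne3 and from -0.76 for Slc26a3 to -0.82 for Slc26a6. The calls of Slc9a3 and Kcne3 were lost without either Rnaseh2bΔIEC library, and that of Slc26a6 without Rnaseh2bΔIEC library 2. Loss of the Rnaseh2b transcript was itself unequal, at -1.36 in Rnaseh2bΔIEC against WT and -0.81 in double-knockout against Atg16l1ΔIEC organoids. The part of this unequal loss in the differences of effects was not tested.

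Among 57 further genes of ion transport, 43 were tested. Called higher and lower were 12 and 6 in Rnaseh2bΔIEC against WT, 7 and 4 in Atg16l1ΔIEC against WT, and 4 and 9 in double knockout against WT. Relative to Rnaseh2bΔIEC, double-knockout organoids had 3 higher and 14 lower, and relative to Atg16l1ΔIEC 4 and 10. For the difference of effects 7 were positive and 16 negative. Of all genes tested, 14.4% were called higher and 12.3% lower in Rnaseh2bΔIEC and 8.73% and 10.4% in Atg16l1ΔIEC against WT. The shares were 8.10% and 8.01% in double knockout against WT, 11.1% and 14.4% against Rnaseh2bΔIEC, 12.6% and 12.5% against Atg16l1ΔIEC, and 35.1% for the difference of effects. With the library pair as a random block, 6 of the 43 were called in Rnaseh2bΔIEC against WT. In Atg16l1ΔIEC and in double knockout against WT limma then called 0 and 0, with 13 and 14 at an unadjusted p under 0.05. The counts were 10 against Rnaseh2bΔIEC, 2 against Atg16l1ΔIEC and 13 for the difference of effects. With pairs averaged, limma called 0 in all 6 comparisons, with 6 to 15 at an unadjusted p under 0.05. Median differences over the 43 genes lay between -0.09 and 0.10 in the 6 comparisons, while those over all genes tested lay between -0.0023 and 0.0029. Of 8 further absorption genes tested, beside those shares over all genes, 3 were called higher and none lower than WT in each single knockout, namely Scnn1a, Slc26a2 and the water channel Aqp8 in Rnaseh2bΔIEC and Scnn1a, Slc4a5 and the exchanger Slc9a8 in Atg16l1ΔIEC organoids.

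Of the 12 genes that met the naming rule, 5 were scaffolds or regulators of NHE3, CFTR or secretion. Slc9a3r1, the scaffold NHERF1 that tethers NHE3 and CFTR, had 11.82 ± 0.05 (n = 4) in WT and 12.39 ± 0.02 (n = 2) in Rnaseh2bΔIEC organoids, a rise of 0.57 (SE 0.05, limma adjusted p = 1.24e-05). Pdzk1, a related apical scaffold, rose by 0.84 over WT in Rnaseh2bΔIEC (limma adjusted p = 0.0274) and differed by -0.86 in double-knockout organoids (limma adjusted p = 0.0163). Among the 12 genes Pdzk1 had the largest difference between 2 genotypes, -1.70 between double-knockout and Rnaseh2bΔIEC organoids (limma adjusted p = 0.000832). Guca2b, the hormone uroguanylin that raises chloride secretion, differed from WT by -0.66 in double-knockout organoids (limma adjusted p = 0.018). Sgk1, a kinase that activates NHE3 and the sodium channel ENaC, rose by 0.92 in Rnaseh2bΔIEC over WT (limma adjusted p = 0.000207). Vipr1, a receptor for the secretagogue VIP, rose by 1.01 in Rnaseh2bΔIEC (limma adjusted p = 0.00234) and 0.52 in Atg16l1ΔIEC (limma adjusted p = 0.0321).

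Genes of absorption and other roles also met the naming rule. Scnn1a, the alpha subunit of ENaC, rose over WT by 0.51 in Rnaseh2bΔIEC (limma adjusted p = 0.00235) and 0.39 in Atg16l1ΔIEC (limma adjusted p = 0.00416). Slc26a2, a sulfate transporter, rose by 0.54 in Rnaseh2bΔIEC (limma adjusted p = 0.00162), and Slc4a5, a sodium bicarbonate cotransporter, by 0.47 in Atg16l1ΔIEC (limma adjusted p = 0.0332). Fxyd3, a regulator of the sodium pump, rose over WT by 0.50 in double-knockout organoids (limma adjusted p = 0.0475). Car2, carbonic anhydrase 2, had a mean of 7.95 ± 0.18 in WT (n = 4) and 7.06 ± 0.18 in Rnaseh2bΔIEC (n = 2), a difference of -0.89 (limma adjusted p = 0.015). Kcnh2, another potassium channel pore, differed by -1.09 in the same comparison (limma adjusted p = 0.0208).

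Markers of cell types moved with the same genotypes. Of 12 enterocyte markers, 10 were called higher in Rnaseh2bΔIEC than in WT and none lower, against 14.4% and 12.3% of all genes. The median difference was 0.86. Their summed linear level ran from 309400 to 341000 in Rnaseh2bΔIEC and from 156400 to 231600 in WT libraries. Their mean log2 value was 14.16 and 14.26 in the Rnaseh2bΔIEC libraries, which are male. It was 13.62 and 13.45 in male and 13.08 and 13.06 in female WT libraries. All marker counts treat the libraries of a pair as independent. In double-knockout against Rnaseh2bΔIEC organoids 11 of the 12 were called lower, against 14.4% of all genes. The median was -1.11 and the summed level ran from 139800 to 186800. None of the 12 was near the lowest value of the table. Across the 14 libraries the mean of the enterocyte markers correlated with Slc26a6 (r = 0.94), Slc9a3 (r = 0.89), Slc26a3 (r = 0.81) and Kcns3 (r = 0.67). These points share genotype, pair and sex, so the correlations are a description, and the part of the enterocyte markers in the rise of the absorption genes was not tested.

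Paneth and goblet cell markers were called higher in double-knockout than in Atg16l1ΔIEC organoids. In double-knockout against Atg16l1ΔIEC organoids 5 of 8 Paneth cell markers and 7 of 7 goblet cell markers were called higher and none lower, with medians of 0.61 and 0.69. Against Rnaseh2bΔIEC 1 of the 8 and 6 of the 7 were called higher. Against WT 4 of the 8 Paneth cell markers were called higher, and 1 of the 7 goblet cell markers was called lower. Of all genes, 12.6%, 11.1% and 8.10% were called higher in these comparisons in that order, and 8.01% lower against WT. Of the 7 goblet cell markers, 5 were called lower than WT in Atg16l1ΔIEC and 3 in Rnaseh2bΔIEC organoids, against 10.4% and 12.3% of all genes. Defa21 and Defa22 of the Paneth cell list were low and nearly flat, at 4.09 to 4.27 and 4.005 to 4.13. The summed level of the Paneth cell markers ran from 44940 to 59460 in double-knockout, from 31820 to 34640 in WT and from 22330 to 35180 in Atg16l1ΔIEC libraries. Kcne3 (r = 0.89) and Slc12a2 (r = 0.79) followed the mean of the Paneth cell markers over the 14 libraries, and Kcns3 ran against it (r = -0.77). Of 8 stem cell markers 6 were called lower in Atg16l1ΔIEC than in WT, against 10.4% of all genes. Slc12a2 and Kcnq1 were lowest in Atg16l1ΔIEC organoids. In double-knockout against Atg16l1ΔIEC organoids 6 stem cell markers were called higher, against 12.6% of all genes. The correlation of Slc12a2 with the stem cell markers was 0.85. Of 7 enteroendocrine cell markers 1 was called higher in double knockout than in WT, and 0 of 4 tested tuft cell markers passed in that limma comparison, where 1 of them had an unadjusted p under 0.05. Of 6 proliferation markers 1 was called higher there, and of 7 markers of all epithelium 1 was higher and 1 lower. Pecam1, the only stromal, endothelial or immune marker tested, was called in 0 of 6 limma comparisons and had an unadjusted p under 0.05 in 0. The part of these cell types in the differences of Kcne3, Slc12a2, Kcnq1 and Kcns3 was not tested.

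**Figure D5:**
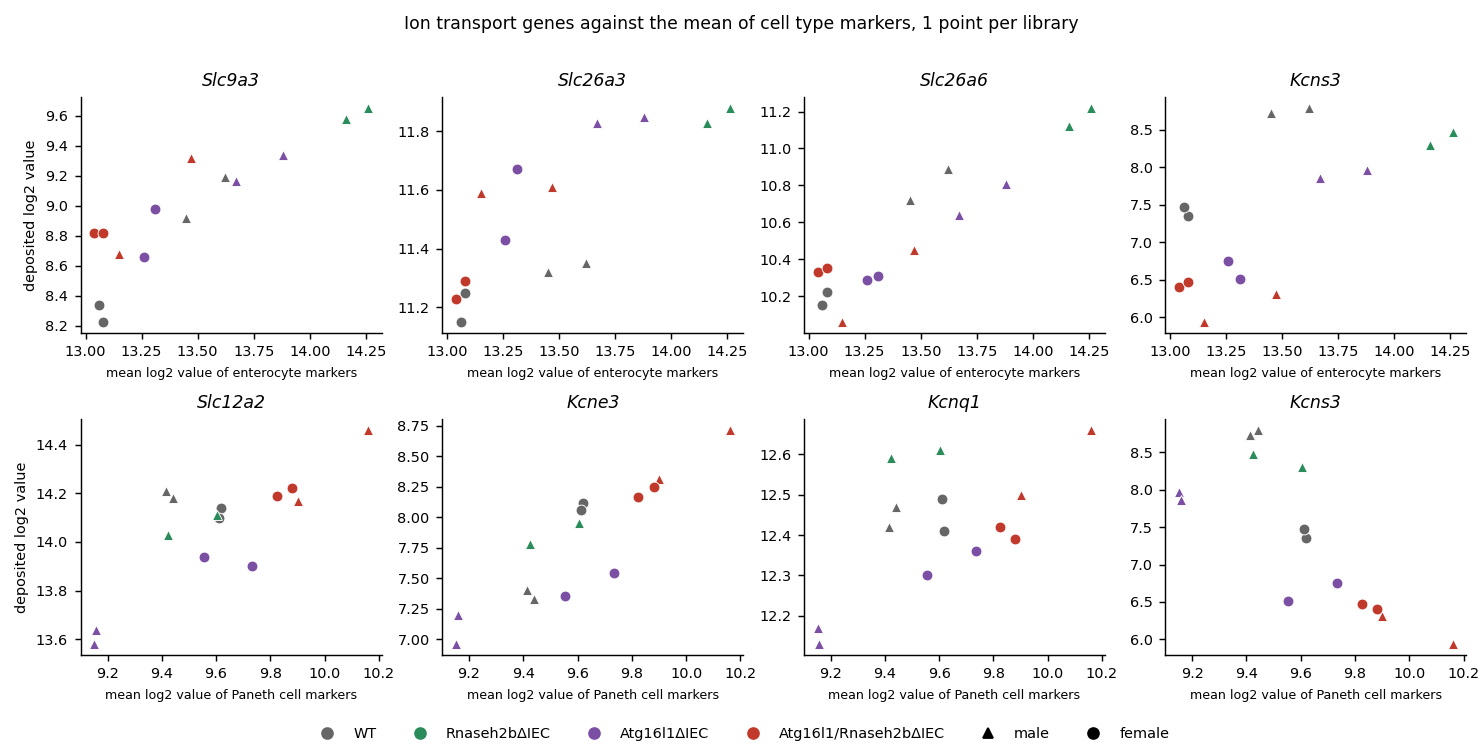
Deposited log2 value of ion transport genes against the mean log2 value of 12 enterocyte markers (upper row) and 8 Paneth cell markers (lower row), with 1 point per library, colour for genotype and shape for sex. The Rnaseh2bΔIEC libraries sit at the upper right of the enterocyte panels for Slc9a3, Slc26a3 and Slc26a6, and the double-knockout libraries sit at the right of the Paneth panels.

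Some members were alike in their pattern over the 14 libraries. Slc9a3 correlated with Slc26a6 (r = 0.86) and Slc26a3 (r = 0.79), and Slc12a2 with Kcnq1 (r = 0.82) and Kcne3 (r = 0.80). Slc26a3 and Slc26a6 were less alike (r = 0.59). Kcns3 was nearest to Slc26a6 (r = 0.80) among the members. Among all 12802 genes tested, the 5 with the pattern most like Kcns3 were 4933404O12Rik (r = 0.98), Ech1 (r = 0.97), Pbx2 (r = 0.97), Cds2 (r = 0.96) and Cldn15 (r = 0.96). Ech1 is an enzyme of fatty acid oxidation, and Cldn15 is a tight junction claudin that passes sodium between cells. For Slc26a6 they were Cdhr2, Mttp and Lpgat1 (r from 0.97 to 0.98), for Slc9a3 Bpnt1, Ckb and Rbp2 (r from 0.95 to 0.97), and for Slc26a3 Abcb9, Rgn and Blnk (r from 0.96 to 0.98). For Slc12a2 they were Utp6, St3gal6 and Baz1b (r from 0.95 to 0.96), for Kcnq1 Cacnb3, Ctnnbl1 and Emc2 (r from 0.91 to 0.95), for Kcne3 Slc18a1, Elac2 and Itga6 (r from 0.96 to 0.97), for Cftr Stam and Srgap2 (r from 0.93 to 0.95) and for Slc9a2 Bcor, Card10 and Glt8d1 (r from 0.93 to 0.97). Of these genes Mttp also stands in the list of enterocyte markers.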

How the data were processed

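RNA from small intestinal organoids of 4 genotypes was sequenced by the authors as stranded mRNA libraries with single 50 bp reads, trimmed with cutadapt, aligned to GRCm38 with TopHat2, counted with HTSeq and analysed with DESeq2 (versions not given in the sources used here, nor the strand setting of the counting). The authors deposited 18781 genes by 14 libraries as log2 values, with a transformation that is not named. The values are not scaled to gene length, low genes are drawn together, and the depth behind them is unknown. No columns were left unmapped.

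GENCODE M21 supplied symbols, coordinates and exon lengths (99.68% of identifiers matched). The filter kept 12802 genes averaging 3.32 or more, which is 10 on the linear scale, and limma 3.58.1 in R 4.3.3 (lmFit, contrasts.fit, eBayes with a trend) fitted genotype means to every library, with Benjamini-Hochberg adjustment over all genes at 0.05. The fit was run on simulated data in which all libraries were independent. That run held no library pairs, so it cannot show how calls fare with correlated pairs. Members, lists and tests were chosen with earlier results of these data known. From the lists of ion transport genes, those called in at least 2 of the 6 comparisons with a log2 difference of at least 0.5 in 1 of them were named, 12 in all, and for likeness the 5 genes correlating best with Kcns3 and the 3 best for each other member. Some genes that these rules name are not reported here. Markers covered enterocytes, stem, Paneth, goblet, enteroendocrine and tuft cells, proliferation, all epithelium, and stromal, endothelial and immune cells.

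Alternatives were no filter, a filter of 50, a pseudocount of 1, averaged pairs, upper quartile scaling, a lane term, a block for the replicate number, fits of the groups compared, fits within a lane and leaving out each library. Sex as a covariate, the pair as a random block and fits within a sex were chosen after seeing the data. Promoter sequences are RefSeq's on GRCm38.p6. Figures were drawn with matplotlib.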

Additional observations from a re-analysis of the deposited data

Results flagged for a closer look

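The first double-knockout library stood apart from the other 3 for Slc12a2. Its value was 14.46 where the others had 14.17 to 14.22, and the gap took up 0.848 of the group's range. The same library had the highest Kcne3 (8.72) and Kcnq1 (12.66) of all libraries. It also had the highest marker means for Paneth cells (10.16), goblet cells (12.5) and proliferation (11.9). Such a gap was looked for in 27 groups of 4 libraries, and chance gives it in about 1 of 20. Whether these marker levels have a part in it was not tested.

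The effect of Rnaseh2b deletion differed between organoids with and without Atg16l1 for 6 genes, by the limma test of the difference itself. The difference was 0.39 for Cftr, 0.59 for Slc12a2, 0.96 for Kcne3, -1.07 for Slc9a3, -0.86 for Slc26a3 and -0.89 for Slc26a6. Those of Slc9a3, Slc26a6 and Kcne3 were lost with the library pair as a random block, and Slc12a2 alone of the 6 held with lane as a covariate. The Rnaseh2b transcript was itself reduced less in double-knockout organoids, and the part of this in the differences was not tested.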

How the results depend on the processing

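The calls rest on how libraries are counted. Of 8 tested members, 4, 4, 1, 3, 4 and 6 were called in Rnaseh2bΔIEC against WT, Atg16l1ΔIEC against WT, double knockout against WT, against Rnaseh2bΔIEC and against Atg16l1ΔIEC, and for the difference of effects. In that order, the library pair as a random block gave 1, 0, 0, 1, 2 and 3, and averaged pairs gave 0 by limma in all 6, with 3, 2, 1, 2, 3 and 5 at an unadjusted p under 0.05. The construction of these fits leaves fewer independent samples. Lane as a covariate gave 0, 2, 0, 1, 3 and 1. The lane term rests on the double-knockout pairs alone, which also differ in sex. Double knockout against WT gave 0 without the filter, with only both groups in the fit and within lane 1, and 2 with sex as a covariate, 5 in males and 3 in females. Double knockout against Rnaseh2bΔIEC gave 7 in males. Fits within a sex hold a single pair per genotype, so their p-values measure only the spread within pairs. A sex term takes up part of the spread between pairs. Over all genes, males gave 5340 of 12796 against WT and 5225 of 12796 against Rnaseh2bΔIEC. Against WT, females gave 2075 of 12800 and the sex covariate 2875 of 12802. Leaving out each library gave 1 to 4, 2 to 4, 0 to 1, 0 to 4, 3 to 5 and 3 to 6. Within a lane, neither single knockout could be set against WT.

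Libraries of the same number in different genotypes correlated by -0.41 to 0.46 in their deviations (median -0.02, 18 combinations), so the numbers were not taken as a pairing. The replicate block gave 2, 3, 0, 3, 3 and 4 called members in the same order.

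With lane as a covariate the differences of Slc9a2 were 0.32, 0.17, 0.16, -0.16, -0.00527 and -0.32 in the same order, and within a lane 0.16 against WT, -0.16 against Rnaseh2bΔIEC and -0.00527 against Atg16l1ΔIEC. Against WT in Rnaseh2bΔIEC it was 0.025 with sex as a covariate and 0.016 in males. For double knockout against Rnaseh2bΔIEC it was -0.031 with the replicate block, -0.083 with sex and -0.16 in males, and for double knockout against WT 0.026 in females. With lane, Kcnq1 turned to -0.023 in Rnaseh2bΔIEC and -0.043 in double knockout against WT, Kcne3 to -0.16 in Rnaseh2bΔIEC and Slc26a3 to -0.00472 in double knockout against WT, and within lane 1 Kcnq1 and Slc26a3 gave -0.043 and -0.00472 there. Kcns3 in Rnaseh2bΔIEC against WT turned to -0.084 with sex and -0.37 in males. In males Cftr was -0.15 and Slc9a3 -0.058 in double knockout against WT, and Slc26a6 -0.086 in Atg16l1ΔIEC against WT. In females Slc26a6 was 0.15 and Kcnq1 -0.046 in double knockout against WT, and Slc26a6 0.039 and Slc9a3 0.00112 against Atg16l1ΔIEC. Leaving out libraries moved double knockout against WT from -0.035 to 0.043 for Cftr, -0.13 to 0.016 for Slc9a2 and -0.012 to 0.080 for Kcnq1, Slc9a2 against Rnaseh2bΔIEC from -0.012 to 0.13, and Slc26a6 in Atg16l1ΔIEC against WT from -0.10 to 0.14. None of these signs belonged to a call of the fit reported, and the cause was not tested.

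Over all genes, 3424, 2450, 2063, 3262, 3218 and 4499 were called. The random block gave 728, 384, 85, 692, 478 and 1553, and averaged pairs 0, 1, 0, 0, 0 and 0 by limma, with 2103, 1579, 1311, 2044, 1944 and 2773 at an unadjusted p under 0.05. Lane as a covariate gave 1504 in Rnaseh2bΔIEC and 1586 in Atg16l1ΔIEC against WT and 2580 for the difference of effects. Double knockout against WT gave 1260 with only both groups in the fit and 1313 within lane 1, and against Atg16l1ΔIEC 2065 with only both groups. Males gave 4049 in Atg16l1ΔIEC against WT and 5340, 5225 and 6388 in double knockout against WT, Rnaseh2bΔIEC and Atg16l1ΔIEC, and females 3850 in Atg16l1ΔIEC against WT. Leaving out a library gave as few as 1135 (Rnaseh2bΔIEC library 1) in Rnaseh2bΔIEC against WT, 999 (WT library 2) in double knockout against WT, 757 (Rnaseh2bΔIEC library 2) against Rnaseh2bΔIEC, 1827 (Atg16l1ΔIEC library 3) against Atg16l1ΔIEC and 2704 (Rnaseh2bΔIEC library 2) for the difference of effects. Upper quartile scaling changed the split of higher and lower genes from 1117 and 1333 to 1356 and 1180 in Atg16l1ΔIEC, and from 1037 and 1026 to 1236 and 888 in double knockout, both against WT, and from 1417 and 1845 to 1668 and 1668 in double knockout against Rnaseh2bΔIEC. It ended the Cftr call in Atg16l1ΔIEC and no other. A stricter filter and a pseudocount ended no call of the members. Depth is unknown, so no limit from counting can be given.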
